A study of Mus musculus with 34 samples.

Results

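The T-box genes followed here act in mouse gastrulation: T (brachyury), Eomes, Tbx3, Tbx6 and Tbx20. They were taken by gene name, so 5 of the 37145 genes in the culture tables and of the 46785 in the embryo tables were followed. T-box proteins are transcription factors that share a DNA-binding domain. In the gastrulating mouse embryo T and Eomes are the early members of the primitive streak, where epiblast cells leave the epithelium and become mesoderm and definitive endoderm. Eomes acts downstream of NODAL and is needed for anterior mesoderm and definitive endoderm, whereas T acts with WNT and FGF signals and is needed for posterior mesoderm and the notochord. Tbx6 directs streak descendants to paraxial mesoderm, Tbx20 acts in cardiac mesoderm, and Tbx3 acts in pluripotent cells, endoderm and mesoderm.

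The series concerns Evx1as, a long non-coding RNA at the homeobox gene Evx1. KI denotes 3 cultures of an embryonic stem cell line labelled 4x polyA KI and WT denotes 3 cultures of the line CJ9. Both are of strain 129S1/SVImJ and were 4 days without leukemia inhibitory factor (LIF), which keeps such cells undifferentiated. The labels give neither the insertion site nor whether a line is 1 clone, and nothing says that the numbered cultures were grown apart, so p-values over them measure a spread that may be technical. The embryo samples were pieces cut by laser from cryosections of embryonic day 7 C57/B6 embryos and sequenced by Geo-seq, a protocol for small captures, with genotype Evx1as-/- (homozygous) or Evx1as+/- (heterozygous), and no wild-type embryo is among them. Mesoderm was captured in 5 homozygous and 3 heterozygous sections and the streak in 5 homozygous and 6 heterozygous sections, and each carries a layer number between 1 and 11, with no direction stated in the labels. Each genotype has 1 anterior epiblast section.

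The targeted RNA, listed as 5730457N03Rik, was at 0.0674 to 0.137 FPKM in KI cultures, against 3.94 to 5.99 FPKM in WT cultures. FPKM is the deposited unit, fragments per transcript length and sequencing depth. In the homozygous streak it was listed at 0 in 3 of 5 sections and reached 0.159 FPKM, while the heterozygous streak reached 4.57 FPKM with 1 of 6 sections at 0. It was listed at 0 in all 5 homozygous mesoderm sections and reached 0.838 FPKM in heterozygous mesoderm. The number of reads behind a library is not given by the tables, so no counting interval was computed; the tables hold an interval for each value, whose method is not given in the sources used here. Heterozygous mesoderm sections had 7025 to 8057 genes at 1 FPKM or more, against 8420 to 9403 in homozygous mesoderm. The lowest summed FPKM of any section, 132929, was in heterozygous mesoderm of layer 11. The entry Yam1 took 1.07% to 33.1% of the summed FPKM in heterozygous and 7.32% to 22.2% in homozygous mesoderm. Mitochondrially encoded genes took 2.03% to 3.21% of the summed FPKM in the 11 homozygous sections and 3.38% to 5.53% in the 10 heterozygous sections whose labels agree. Another 3 sections have a title that disagrees with the cell type label on the region and were kept out of the comparisons. Summed markers of visceral endoderm, an epithelium next to the epiblast that also expresses Eomes, reached 555 FPKM in the homozygous streak of layer 11 and 361 FPKM in the homozygous mesoderm of layer 9, against at most 43.4 FPKM in any other section. In the other homozygous mesoderm sections they summed to 7.24 to 31.5 FPKM, against 1.63 to 9.48 FPKM in heterozygous mesoderm. Leaving out the richest pieces thus does not make the genotypes alike in these markers, and their part in the Eomes values was not tested. Summed node markers were 89.8 FPKM in the homozygous and 405 FPKM in the heterozygous streak of layer 1 and at most 8.87 FPKM in every other section. Results over sections are therefore also given without these pieces where a call changes.

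The promoters of T and Eomes are shown because the balance of these genes differed between genotypes in cultures and in embryo sections. RefSeq windows (GRCm38.p6) of 300 bases, from 250 before to 50 after the annotated start, were on hand for 4 of the 5 genes. T lies on chromosome 17 (chr17:8434173-8434472, plus strand) and Eomes on chromosome 9 (chr9:118477939-118478238, plus strand). Capitals mark matches on either strand to the motifs searched: TCF/LEF, the binding sequence of WNT effectors, spelled CTTTGAA with the variant spellings CTTTGAT and also CTTTGTA as well as CTTTGTT; the T-box site TCACACC; the TATA box TATAAA; and the CCAAT box.
T promoter: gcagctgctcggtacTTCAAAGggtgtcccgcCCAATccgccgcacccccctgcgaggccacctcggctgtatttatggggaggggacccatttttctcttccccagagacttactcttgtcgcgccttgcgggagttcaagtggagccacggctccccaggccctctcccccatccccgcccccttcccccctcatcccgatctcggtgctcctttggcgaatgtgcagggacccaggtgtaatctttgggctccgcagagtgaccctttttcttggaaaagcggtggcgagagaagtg
Eomes promoter: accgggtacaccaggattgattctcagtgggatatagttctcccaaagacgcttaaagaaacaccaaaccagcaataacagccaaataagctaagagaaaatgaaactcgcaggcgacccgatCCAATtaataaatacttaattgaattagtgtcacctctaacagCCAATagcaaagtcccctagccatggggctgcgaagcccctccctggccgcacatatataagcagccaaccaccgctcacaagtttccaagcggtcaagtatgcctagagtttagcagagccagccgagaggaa
The T window has a GC content of 61.7% and holds 1 TCF/LEF match, at -235 to -229 from the start on the opposite strand, and 1 CCAAT box at -218 to -214. The Eomes window has a GC content of 47.3% and holds CCAAT boxes at -127 to -123 and at -84 to -80. A TCF/LEF match was present in 16.9% of all 32851 RefSeq windows of this length and a CCAAT box in 37.4%. The T-box site (3.98% of windows) and the TATA box (13.6%) matched neither gene. The Tbx6 window has a TATA box at -43 to -38. A match describes letters in a window and is no evidence of binding.

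In KI cultures T and Tbx3 were far lower than in WT cultures while Eomes stayed within the WT range. T had 6.71, 8.97 and 16.5 FPKM in KI cultures, against 124, 140 and 199 FPKM in WT cultures. Every KI value lay below every WT value, and T fell by 3.79 on the log2(FPKM + 1) scale (SE 0.31; limma, BH-adjusted p = 0.000298). Tbx3, which in embryonic stem cells takes part in self-renewal and in endoderm and mesoderm entry, had 2.88, 0.904 and 2.21 FPKM in KI cultures, against 41.7, 41.9 and 26.2 FPKM in WT cultures. These groups did not overlap either, and Tbx3 fell by 3.68 on the log2 scale (SE 0.30; limma adjusted p = 0.000298). Eomes had 32.1, 37.4 and 41.8 FPKM in KI cultures, against 24.0, 29.9 and 53.1 FPKM in WT cultures. All 3 KI values of Eomes lay inside the WT span, and its log2 change of 0.13 had a 95% interval of -0.50 to 0.76 (limma adjusted p = 0.744). This interval excludes a change of the size measured for T, and equal levels were not shown.

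Tbx6 and Tbx20 were near the bottom of the scale in both lines. Tbx6 averaged 0.556 ± 0.314 FPKM in KI cultures and 0.682 ± 0.319 FPKM in WT cultures (SD, n = 3 each). Tbx20 averaged 0.520 ± 0.168 FPKM in KI cultures and 0.856 ± 0.720 FPKM in WT cultures (SD, n = 3 each). Neither reached the mean of 1 FPKM that a gene needed to be tested. Of the 3 T-box genes tested 2 were called lower, beside 32.4% of all 13133 genes called in either direction. The groups did not overlap for the same pair of genes, beside 48.4% of all genes, so a call is common in this comparison and the sizes of the changes carry more than the count.

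**Figure D1:**
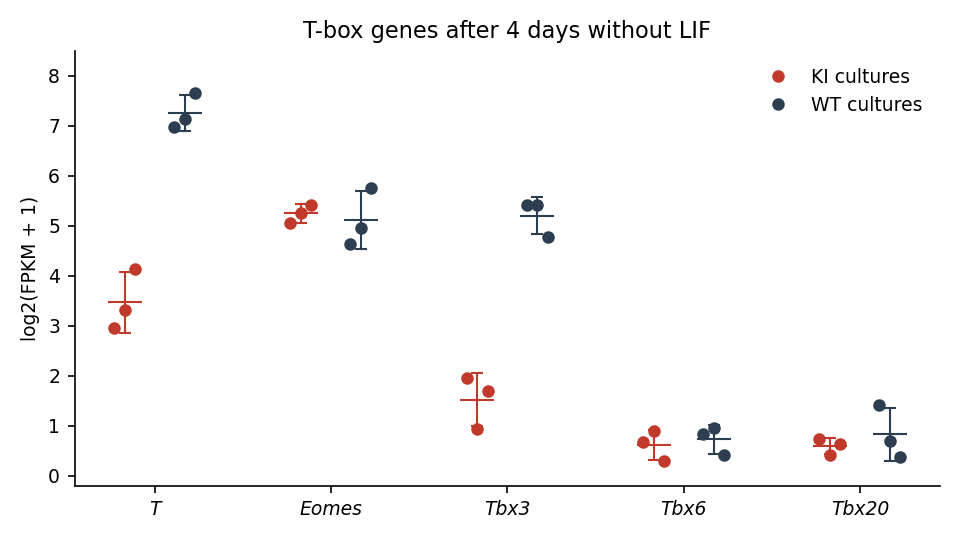
Levels of the 5 T-box genes in the 6 cultures, as log2(FPKM + 1) on the vertical axis, with KI cultures left of WT cultures for each gene; points are cultures, bars the mean and SD. T and Tbx3 are separated between the lines, with T at 6.71 to 16.5 FPKM in KI and 124 to 199 FPKM in WT cultures, whereas Eomes overlaps.

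Within each culture the ratio of T to Eomes does not depend on how libraries are scaled to each other. It was 0.209, 0.240 and 0.395 in KI cultures, against 5.18, 4.70 and 3.76 in WT cultures. Eomes thus exceeded T in every KI culture and T exceeded Eomes in every WT culture. The log2 ratio, with 1 FPKM added to both genes, was lower by a mean difference of -3.92 (exact permutation test, two-sided, p = 0.1, the smallest that 3 against 3 allows). Table names carry a token, of a meaning not given in the labels, that 1 WT and 2 KI cultures share. Among these 3 cultures the log2 changes were -3.42 for T, -4.12 for Tbx3 and 0.39 for Eomes. Markers of the epiblast (6 genes) summed to 1183 to 1331 FPKM in KI cultures and 302 to 391 FPKM in WT cultures, and 5 markers of extraembryonic mesoderm summed to 28.9 to 41.0 FPKM in KI and 154 to 240 FPKM in WT cultures. Markers of extraembryonic ectoderm (5 genes) summed to 6.58 to 9.27 FPKM in KI and 27.8 to 67.0 FPKM in WT cultures. Of the 4 tested 2 fell and 1 rose. Gata3 averaged 0.527 FPKM in KI and 27.9 FPKM in WT cultures, and Cdx2 0.333 and 19.6 FPKM. Ascl2 (2.83 and 1.76 FPKM) and Esrrb (4.18 and 1.45 FPKM) averaged higher in KI cultures. Elf5 was at or near 0 in both lines (0 and 0.117 FPKM). The part of these differences in the T result was not tested. In such bulk samples fewer cells expressing a gene and less RNA per cell cannot be told apart.

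Genes tied to T in the mouse, of caudal mesoderm and the WNT loop, were mostly lower in KI cultures. Of 10 tested of the 12 listed, 8 fell, none rose and 2 missed the threshold, with a median log2 change of -1.34 beside 0.02 over all genes. Of all 13133 genes 16.2% were called lower and 16.2% higher. Nkx1-2, a homeobox gene of the caudal epiblast, averaged 0.423 ± 0.328 FPKM in KI cultures and 12.9 ± 2.61 FPKM in WT cultures (log2 change -3.30, limma adjusted p = 0.000195). Sp5, a WNT target, averaged 20.2 ± 8.49 FPKM in KI cultures and 176 ± 28.4 FPKM in WT cultures (log2 change -3.13, adjusted p = 0.000354). Cyp26a1, which degrades retinoic acid, had a log2 change of -2.74 (adjusted p = 0.000969). Msgn1, a presomitic mesoderm regulator, was listed at 0 in all 3 KI cultures and averaged 6.58 ± 2.10 FPKM in WT cultures. It also belongs to the 9 markers of presomitic and paraxial mesoderm, which summed to 50.6 to 69.3 FPKM in KI cultures and 25.0 to 37.8 FPKM in WT cultures. Of the 6 of these that were tested 2 rose, 2 fell and 2 did not pass. Those that rose, named after their values were seen, were Tcf15 (42.7 ± 8.48 FPKM in KI and 4.96 ± 2.33 FPKM in WT cultures, adjusted p = 0.000485) and Dll3 (7.27 ± 1.99 FPKM in KI and 1.98 ± 0.499 FPKM in WT cultures, adjusted p = 0.00347), and Lfng fell with Msgn1 (-0.47 on the log2 scale, adjusted p = 0.0484).

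Genes tied to Eomes split. Of 8 tested of the 10 listed, 5 fell, 2 rose and 1 did not pass, with a median of -1.19. Mixl1, a homeobox gene of mesendoderm, fell by 3.84 on the log2 scale (adjusted p = 0.000129) and Mesp1, an early mesoderm regulator, by 3.50 (adjusted p = 0.00171). Lhx1, of anterior mesendoderm, fell by 2.25 (adjusted p = 0.00442). Otx2, a homeobox gene of the epiblast and anterior ectoderm, averaged 60.0 ± 8.83 FPKM in KI cultures and 13.7 ± 9.24 FPKM in WT cultures and rose by 2.22 on the log2 scale (adjusted p = 0.00422). The other gene that rose, named after its value was seen, was Foxa2, of anterior streak and endoderm (1.89 on the log2 scale, adjusted p = 0.017). Calls like these were common, with 32.4% of all genes called in either direction. Of the 9 tested genes of upstream signals 3 rose, 2 fell and 4 did not pass, with a median of -0.02. Among them Bmp4 fell by 2.75 (adjusted p = 0.00131) and the streak-inducing ligand Wnt3 by 2.23 (adjusted p = 0.000324), while Fgf4 rose by 2.19 (adjusted p = 0.000857) and the NODAL co-receptor Tdgf1 by 1.65 (adjusted p = 0.00141) on the log2 scale. Of the 12 other T-box genes Mga alone reached the filter; it averaged 48.4 ± 3.10 FPKM in KI cultures and 52.8 ± 6.62 FPKM in WT cultures and did not pass (adjusted p = 0.516).

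In the streak of homozygous embryos T was lower and Eomes higher than in the heterozygous streak, in every layer that both genotypes have. T in the homozygous streak was at 72.0, 51.1, 63.0, 105 and 50.8 FPKM in layers 1, 5, 7, 9 and 11. In the heterozygous streak it was at 263, 162, 295, 297, 240 and 133 FPKM in layers 1, 3, 5, 7, 9 and 11. The highest homozygous section lay below the lowest heterozygous one, and T was lower in 5 of 5 layer-matched pairs. With layer as a covariate the log2 change was -1.72 (SE 0.30, 95% interval -2.35 to -1.09), which did not pass after adjustment (limma adjusted p = 0.0925). No section is tied to an embryo by the labels, so sections of a genotype may share one and p-values over sections are too small. With libraries scaled by median ratios T passed with -2.01 (adjusted p = 0.0012), and with the 3 conflicting sections placed by cell type label it was -0.72 (adjusted p = 0.600). T also passed without homozygous layer 9 (adjusted p = 0.0308), without heterozygous layer 11 (adjusted p = 0.0208) and with conflicting sections placed by title (adjusted p = 0.0374). Over the 11 fits that leave out 1 section the limma adjusted p of T ran from 0.0208 to 0.371, and no other of them passed.

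Eomes in the homozygous streak was at 56.1, 49.1, 56.6, 59.9 and 20.2 FPKM in layers 1, 5, 7, 9 and 11, against 11.1, 23.6, 19.4, 15.7, 17.5 and 2.73 FPKM in layers 1, 3, 5, 7, 9 and 11 of the heterozygous streak. Layer 11 was the lowest section in both genotypes. Its homozygous value lay below the heterozygous value of layer 3, so the groups overlapped, although Eomes was higher in 5 of 5 layer-matched pairs. The log2 change was 1.82 (SE 0.41, 95% interval 0.94 to 2.69; limma adjusted p = 0.216, too small for sections that may share an embryo). Summed visceral endoderm markers were at 33.7, 0.501, 0.653, 43.4 and 555 FPKM in layers 1, 5, 7, 9 and 11 of the homozygous streak. In the heterozygous streak they were at 1.59 to 23.2 FPKM, and their part in the Eomes values was not tested.

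Tbx6, the paraxial mesoderm regulator, was at 0.395, 1.16, 4.64, 0 and 0.591 FPKM in layers 1, 5, 7, 9 and 11 of the homozygous streak. The heterozygous streak had 2.16, 8.57, 29.2, 8.71, 11.6 and 3.25 FPKM in layers 1, 3, 5, 7, 9 and 11. Tbx6 was lower in 5 of 5 layer-matched pairs, with groups that overlapped. Its log2 change of -2.20 (SE 0.56) did not pass (limma adjusted p = 0.247, too small for the reason given). Summed markers of presomitic and paraxial mesoderm were at 4.02 to 15.0 FPKM in the homozygous and 7.38 to 58.2 FPKM in the heterozygous streak, and their part in the Tbx6 values was not tested. Tbx3 and Tbx20 had no streak section above 1.95 and 0.689 FPKM and were not tested there. Of all 9932 genes tested 0.0201% were called and the groups did not overlap in 0.846%, so separation of the kind seen for T was uncommon among genes.

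**Figure D2:**
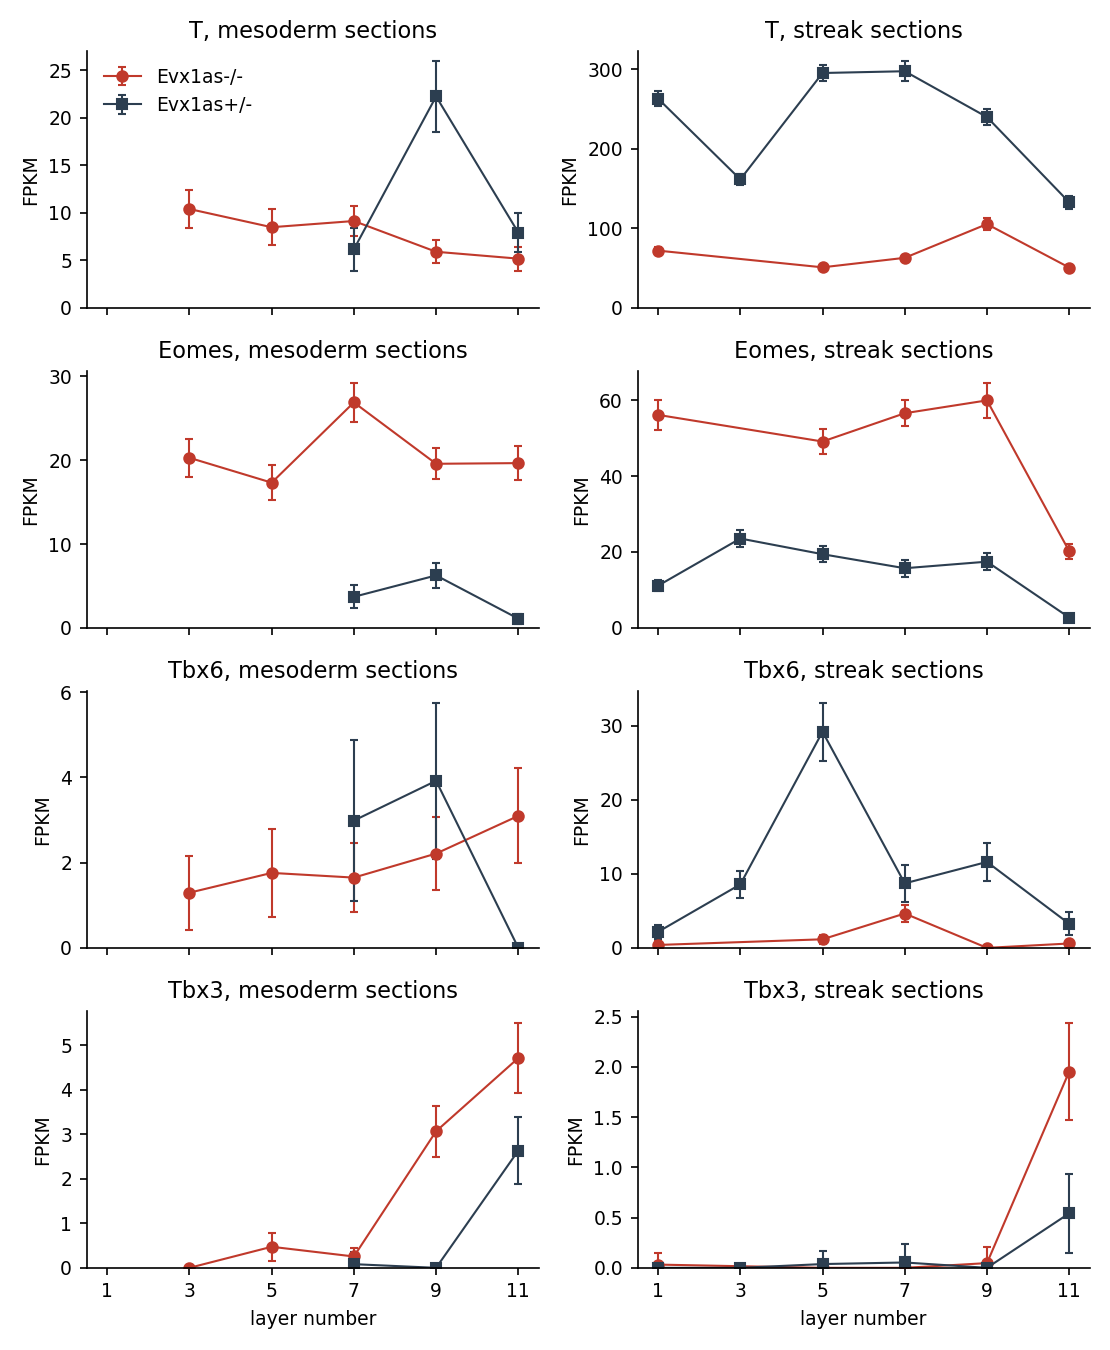
FPKM of T, Eomes, Tbx6 and Tbx3 against layer number in mesoderm (left) and streak (right) sections; circles are homozygous (Evx1as-/-) and squares heterozygous (Evx1as+/-) sections, bars the interval deposited with each value, and lines join neighbouring captured layers. In the streak T is 50.8 to 105 FPKM in homozygous and 133 to 297 FPKM in heterozygous sections, Eomes is higher in each homozygous layer, and Tbx3 is above 1 FPKM in homozygous layer 11 alone; in mesoderm Tbx3 is above 1 FPKM in homozygous layers 9 and 11 and heterozygous layer 11.

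In mesoderm, which has left the streak, Eomes separated the genotypes and T did not. Eomes was at 20.3, 17.3, 26.9, 19.6 and 19.7 FPKM in layers 3, 5, 7, 9 and 11 of homozygous mesoderm, against 3.71, 6.26 and 1.10 FPKM in layers 7, 9 and 11 of heterozygous mesoderm. Every homozygous section exceeded every heterozygous one. Groups without overlap, in either direction, were seen in 9.66% of all 8695 genes. The log2 change was 2.28 (SE 0.45, 95% interval 1.29 to 3.27), just short of the threshold (limma adjusted p = 0.0855, too small for sections that may share an embryo). It passed when heterozygous layer 9 (adjusted p = 0.0349) or homozygous layer 3 (adjusted p = 0.0448) was left out, without the layer term (adjusted p = 0.0355) and with conflicting sections placed by title (adjusted p = 0.0136). Over the fits that leave out 1 section the adjusted p ran from 0.0349 to 0.361. T was at 10.4, 8.49, 9.14, 5.90 and 5.18 FPKM in layers 3, 5, 7, 9 and 11 of homozygous mesoderm, against 6.17, 22.2 and 7.93 FPKM in layers 7, 9 and 11 of heterozygous mesoderm. These ranges overlapped, and the log2 change of -0.57 (95% interval -1.58 to 0.44) did not pass (adjusted p = 0.589). Leaving out heterozygous layer 9, the 1 section at 22.2 FPKM, brought the change of T to -0.06.

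Tbx6 in homozygous mesoderm ranged from 1.29 to 3.10 FPKM, against 0 to 3.92 FPKM in heterozygous mesoderm (log2 change 0.12, limma adjusted p = 0.947). Tbx3 reached 3.07 and 4.71 FPKM in layers 9 and 11 of homozygous mesoderm and 2.63 FPKM in layer 11 of heterozygous mesoderm, and was at most 0.473 FPKM in every other mesoderm section. Its log2 change between genotypes was 1.11 (adjusted p = 0.305). Tbx20 was at 0.0301 to 1.21 FPKM in homozygous and 0.544 to 1.52 FPKM in heterozygous mesoderm and did not reach the filter. Of all genes 0.196% were called in mesoderm.

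Pooling both regions in 1 fit, with region and layer as covariates, moved T and Eomes past the threshold in opposite directions. T fell by 1.22 on the log2 scale (SE 0.27; limma adjusted p = 0.0299) and Eomes rose by 1.95 (SE 0.30; adjusted p = 0.00319) in homozygous sections. Tbx6 had a log2 change of -1.26 (adjusted p = 0.144). These p-values too are too small for sections that may share an embryo. Of all 9527 genes 1.25% were called, 108 higher and 11 lower, and over all genes the median log2 change was 0.24 in this fit, 0.25 in the streak alone and 0.31 in mesoderm alone. Relative to that median the pooled changes were -1.47 for T and 1.71 for Eomes. With each library scaled by its median ratio 94 genes were called higher and 68 lower, with T at -1.50 (adjusted p = 0.00267) and Eomes at 1.72 (adjusted p = 0.00182).

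The 2 calls did not rest on the sections alike. Eomes stayed past the threshold under each alternative run, with adjusted p from 0.00207 to 0.0125 over the fits that leave out 1 section. T lost its call when any of 6 single sections was left out: homozygous streak of layers 1, 7 or 11, homozygous mesoderm of layer 11, heterozygous streak of layer 7 or heterozygous mesoderm of layer 9 (log2 change -1.23 to -1.12, adjusted p 0.0526 to 0.0782). Without the pair of sections rich in visceral endoderm markers T was at -1.16 (adjusted p = 0.130) and Eomes at 2.07 (adjusted p = 0.0127). Without the layer 1 streak sections, which hold the node markers, T was at -1.15 (adjusted p = 0.054) and Eomes at 1.91 (adjusted p = 0.00522). With conflicting sections placed by cell type label T was at -0.53 (adjusted p = 0.523). For none of the members did both regions together separate the genotypes without overlap, as 0.0315% of genes did. That count took no account of region. T in the homozygous streak lay above T in heterozygous mesoderm, so a lower T could not separate the genotypes there. The difference of the genotype effect between regions was 1.22 for T (95% interval 0.15 to 2.29) and 0.37 for Eomes (95% interval -0.95 to 1.68). Neither passed in the interaction test (limma adjusted p = 0.999 each), in which 0 genes were called and 337 had an unadjusted p under 0.05. Tbx6, with 2.33, did not pass either (adjusted p = 0.999).

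**Figure D3:**
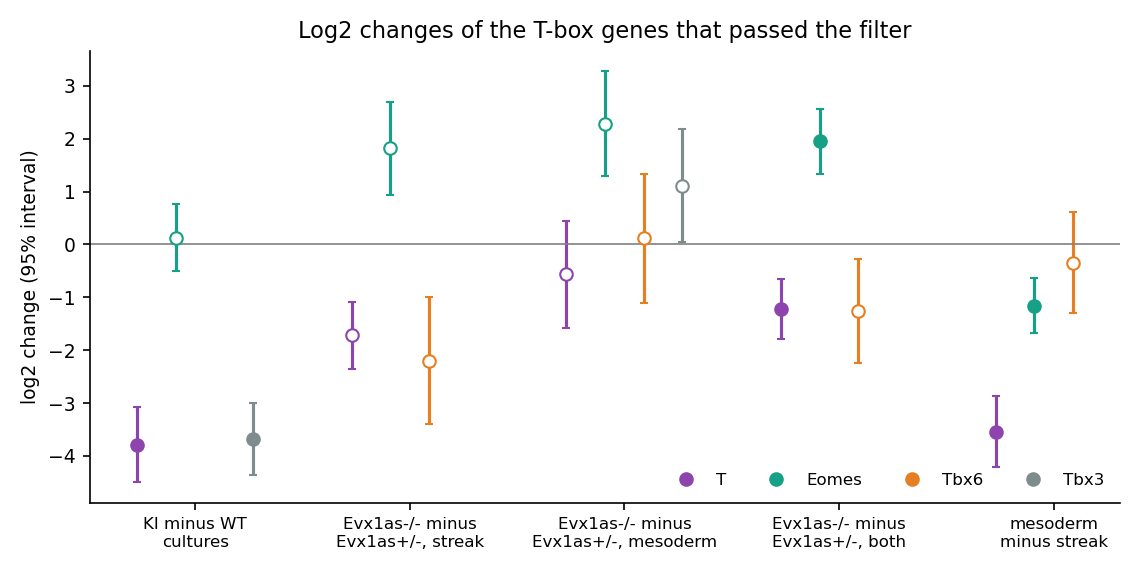
Log2 change (vertical axis) with its 95% interval of the T-box genes that passed the filter, for each comparison, with filled points where the adjusted p was under 0.05 and open points elsewhere. T is below 0 and Eomes above 0 in the 3 comparisons of homozygous with heterozygous sections, and the pooled fit gives -1.22 and 1.95.

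The genes tied to T and to Eomes were counted in the same fits. In the streak the only genes called among all tested were Hes7 and Nkx1-2, both from the list tied to T. That list was chosen with earlier results of these data known, so their place in it is no independent support. Hes7, an oscillating gene of presomitic mesoderm, was at 0 to 0.0799 FPKM in the homozygous and 2.89 to 32.1 FPKM in the heterozygous streak (log2 change -3.27, limma adjusted p = 0.0255). In cultures Hes7 went the other way, averaging 1.40 FPKM in KI and 0.0233 FPKM in WT cultures, and did not reach the filter. Nkx1-2 was at 0 to 2.82 FPKM in the homozygous and 2.37 to 14.1 FPKM in the heterozygous streak (log2 change -2.45, adjusted p = 0.0428). The other 9 tested genes tied to T did not pass, and both calls were lost without the homozygous layer 11 section, which is rich in visceral endoderm markers. None of the 10 genes tied to Eomes passed in the streak, while all 10 had a log2 change above 0 with a median of 0.97, beside 0.25 over all genes. With that median most of all genes lay above 0 too, so the count of 10 is a description. The largest were Otx2 (2.10, adjusted p = 0.160) and Lhx1 (1.92, adjusted p = 0.247), neither past the threshold. After scaling 9 of the 10 were above 0, and 8 without the homozygous layer 11 section. Without the layer 1 sections 5 of the 10 still reached the filter, all 5 above 0. Single sections carry some members: Hhex averaged 11.0 ± 23.9 FPKM in the homozygous streak and Cer1 7.96 ± 17.7 FPKM (SD, n = 5). Of 9 tested upstream signals none passed, with Wnt3a at -1.47 and Tdgf1 at 1.44 (adjusted p = 0.341 each). The p-values of these lists are too small as well.

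In both regions together 1.13% of all 9527 genes were called higher and 0.115% lower. Of the 10 genes tied to Eomes 4 rose, 0 fell and 6 did not pass, with a median of 0.89 beside 0.24 over all genes. They were Lhx1 (2.07, limma adjusted p = 0.00319), Mixl1 (2.02, adjusted p = 0.0309), Gsc (1.88, adjusted p = 0.0104), a homeobox gene of the anterior streak, and Otx2 (1.75, adjusted p = 0.0252), each on the log2 scale. Lhx1 averaged 37.1 ± 18.7 FPKM in homozygous mesoderm and 3.91 ± 2.38 FPKM in heterozygous mesoderm (SD, n = 5 and 3). Mixl1 lost its call after scaling. Otx2, a gene also known in visceral endoderm, lost its call without the sections rich in visceral endoderm markers. The 4 tested markers of visceral endoderm were all above 0 in the same fit, with a median of 1.45, and none passed. Their part in the rise of the genes tied to Eomes was not tested. Of 11 tested genes tied to T, Fgf8, a ligand needed for cells to leave the streak, rose by 1.88 on the log2 scale (adjusted p = 0.004), Hes7 fell by 2.16 (adjusted p = 0.0106) and 9 did not pass, with a median of -0.17. Of 9 tested upstream signals 2 rose, 0 fell and 7 did not pass, with a median of 0.45. Tdgf1 rose by 1.72 (adjusted p = 0.0104) and Wnt3 by 1.33 (adjusted p = 0.0461), and the call of Wnt3 was lost after scaling and without the sections rich in visceral endoderm markers. In mesoderm alone Tdgf1 (2.41, adjusted p = 0.0399) and Wnt3 (2.39, adjusted p = 0.0302) were the calls among 7 tested upstream signals. There 0 of 10 genes tied to Eomes and 0 of 7 tied to T passed, beside 0.196% of all 8695 genes. Short of the threshold were Mixl1 (2.55, adjusted p = 0.0855) and Lhx1 (2.31, adjusted p = 0.0855), Sp5 (1.96, adjusted p = 0.0872) and Cyp26a1 (1.73, adjusted p = 0.213). Both calls were lost without homozygous layer 9, the section rich in visceral endoderm markers.

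T was steeply lower in mesoderm than in the streak of the same genotype and layer, and Eomes less so. T was at 5.18 to 10.4 FPKM in homozygous mesoderm, against 50.8 to 105 FPKM in the homozygous streak. Heterozygous mesoderm had 6.17 to 22.2 FPKM, against 133 to 297 FPKM in the heterozygous streak. Over the 7 pairs of a genotype and layer T fell by 3.54 on the log2 scale (SE 0.31; limma adjusted p = 0.000118) and was lower in 7 of 7 pairs. Eomes was also lower in each of the 7 pairs, with 17.3 to 26.9 FPKM in homozygous mesoderm, against 20.2 to 59.9 FPKM in the homozygous streak. It fell by 1.16 on the log2 scale (SE 0.24; adjusted p = 0.0183), a call lost after scaling (-0.76, adjusted p = 0.160) and without homozygous layer 7 (-1.18, adjusted p = 0.0581). Tbx6 had a log2 change of -0.34 (adjusted p = 0.640). Sections may share an embryo, so these p-values are too small. Of all 9146 genes 8.62% were called, 53 higher and 735 lower with a median of -0.34 over all genes. After scaling 35 were called higher and 28 lower, with T at -3.11 (adjusted p = 0.00101).

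The lower T of mesoderm passed within each genotype: T fell by 3.03 in homozygous pairs (limma adjusted p = 0.00398) and by 4.22 in heterozygous pairs (adjusted p = 0.00082). It was called beside 0.219% of genes in homozygous and 3.07% in heterozygous pairs. In homozygous pairs the call was lost without layer 9 (-2.73, adjusted p = 0.051) and without both layers rich in visceral endoderm markers (-2.56, adjusted p = 0.392), and the difference between genotypes of 1.19 did not pass (95% interval -0.02 to 2.39; adjusted p = 0.808; 0.0109% of genes called). Eomes did not pass within homozygous pairs (-1.02, adjusted p = 0.235) or heterozygous pairs (-1.33, adjusted p = 0.0776). Tbx6 was higher in mesoderm in 3 of 4 homozygous pairs and in 0 of 3 heterozygous pairs. Its changes of 0.58 and -1.58 did not pass (adjusted p = 0.517 and 0.118), nor did their difference of 2.15 (adjusted p = 0.654). These p-values are too small on the same ground.

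Mesoderm also had less of several genes that act with T, in a comparison where most calls were lower. Of all 9146 genes 8.04% were called lower and 0.579% higher, with a median of -0.34. Of 11 tested genes tied to T 4 fell, 0 rose and 7 did not pass, with a median of -0.85: Wnt3a (-2.11, limma adjusted p = 0.00285), Nkx1-2 (-1.96, adjusted p = 0.0243), Sp5 (-1.78, adjusted p = 0.0135) and Fgf8 (-1.35, adjusted p = 0.0284). Wnt3a kept its call after scaling and the other 3 did not. Of the 10 genes tied to Eomes 3 rose, 1 fell and 6 did not pass, with a median of 0.98. Mixl1 fell by 3.43 (adjusted p = 0.000118). The antagonist gene Cer1 rose by 2.85 (adjusted p = 0.031), Gata6, of endoderm and cardiac mesoderm, by 1.87 (adjusted p = 0.00302) and Lhx1 by 1.08 (adjusted p = 0.0404) on the log2 scale, and of these Gata6 kept its call after scaling. None of the 3 passed without the sections rich in visceral endoderm markers, and of the genes tied to T Wnt3a alone did. Of 10 upstream signals 4 fell, Wnt3a, Wnt3 (-2.04, adjusted p = 0.0116), Fgf4 (-1.44, adjusted p = 0.0345) and Tcf7 (-1.34, adjusted p = 0.032), with 0 higher. After scaling Wnt3a alone kept its call, and without the sections rich in visceral endoderm markers Wnt3 and Wnt3a did. P-values of these pairs of sections are too small.

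Along the layers of the streak no member passed a test for a slope. The slope per layer number was -0.03 for T, -0.12 for Eomes (95% interval -0.25 to 0.00) and 0.01 for Tbx6 on the log2 scale (limma adjusted p = 0.785, 0.319 and 0.966), where 0.0805% of genes were called. In mesoderm Tbx3 had a slope of 0.34 per layer number (95% interval 0.15 to 0.54, unadjusted p = 0.00283), which did not pass after adjustment (adjusted p = 0.717), where 0.0115% of genes were called. The slopes of T (-0.08), Eomes (-0.05) and Tbx6 (-0.0043) did not pass either (adjusted p = 1 each). Tbx3 above 1 FPKM was seen in 4 of the 19 mapped streak and mesoderm sections, the homozygous streak and both genotypes' mesoderm of layer 11 and the homozygous mesoderm of layer 9. In the same 4 sections summed markers of extraembryonic mesoderm, 5 genes that include Hand1 and Bmp4 and of which Tbx4 was at 0, were at 12.2, 53.7, 23.5 and 8.22 FPKM, against at most 5.74 FPKM in the other 15, and their part in the Tbx3 values was not tested. Sections may share an embryo, so the p-values of slopes are too small.

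The ratio of T to Eomes set the genotypes apart in both regions. It was 0.264 to 0.512 in homozygous mesoderm, against 1.66 to 7.18 in heterozygous mesoderm. In the streak it was 1.04 to 2.51 in homozygous sections, against 6.86 to 48.6 in heterozygous sections. Among sections whose labels agree T exceeded Eomes in every streak section and in every heterozygous mesoderm section. Eomes exceeded T in every homozygous mesoderm section, as it did in every KI culture. The intervals deposited with T and Eomes overlapped in homozygous streak layers 5 and 7 and in heterozygous mesoderm layer 7. The log2 ratio, with 1 FPKM added to both, averaged -1.33 ± 0.38 in homozygous mesoderm (SD, n = 5) and 1.46 ± 0.76 in heterozygous mesoderm (SD, n = 3). In the streak it averaged 0.53 ± 0.51 in homozygous sections (SD, n = 5) and 4.01 ± 0.81 in heterozygous sections (SD, n = 6).

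The difference of the log2 ratio was -3.48 in the streak (exact permutation test, two-sided, p = 0.00216) and -2.78 in mesoderm (exact permutation p = 0.0179). Over both regions, with labels permuted within each region, it was -3.13 (exact permutation p = 3.87e-05). Each is the smallest p that its design can give, and each is too small where sections share an embryo. With conflicting sections placed by cell type label the streak difference was -2.91 (exact permutation p = 0.00311) and that of both regions -2.79 (exact permutation p = 2.77e-05). Mesoderm minus streak, the difference was -2.38, with a lower ratio in 7 of 7 pairs (exact sign-flip permutation p = 0.0156, the smallest that 7 pairs allow). Without the sections rich in visceral endoderm markers 5 pairs remained, with -2.26 (exact permutation p = 0.0625, the smallest for 5 pairs).

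**Figure D4:**
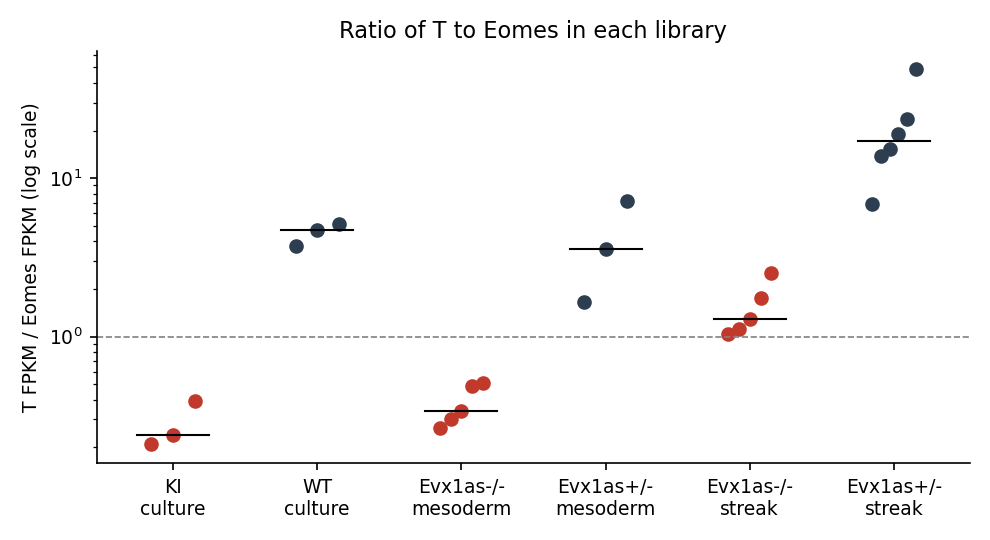
T FPKM divided by Eomes FPKM (vertical log axis) for each library of 6 groups, with KI and homozygous libraries left of WT and heterozygous ones; points are libraries and bars medians, and the dashed line marks equal FPKM. Homozygous mesoderm lies at 0.264 to 0.512 and heterozygous mesoderm at 1.66 to 7.18, without overlap.

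Over the regions of a genotype, anterior epiblast included, T and Eomes levels varied together. Across the 11 homozygous sections the log2 levels of T and Eomes had a Pearson r of 0.87 (Spearman rho 0.92) and across the 10 heterozygous sections an r of 0.84 (rho 0.76). Across all 24 sections r was 0.46 (rho 0.37). These describe sections that share regions and may share embryos, and the 3 regions lie apart in T, so they were not tested. Within the heterozygous streak the order differed: layer 3 had the highest Eomes (23.6 FPKM) with 162 FPKM of T, and layer 1 had 263 FPKM of T with 11.1 FPKM of Eomes. Tbx6 had an r of 0.75 with T and 0.87 with Eomes in the 10 heterozygous sections, and -0.08 and 0.28 in the 11 homozygous ones.

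The anterior epiblast, with 1 section per genotype and hence no replicate check, had little of any member. T was at 0.572 FPKM in the homozygous and 3.62 FPKM in the heterozygous section. Eomes was at 1.10 FPKM in the homozygous and 0.540 FPKM in the heterozygous section. Tbx3 was listed at 0 in both, Tbx6 at 0 in the homozygous and 0.458 FPKM in the heterozygous section, and Tbx20 at 0 in the homozygous and 0.0484 FPKM in the heterozygous section. The intervals deposited with T and Eomes overlapped in the homozygous section (0.191 to 0.953 FPKM for T and 0.694 to 1.51 FPKM for Eomes), and that of heterozygous Eomes ran from 0.00956 to 1.07 FPKM, so no ratio is read from these sections.

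**Figure D5:**
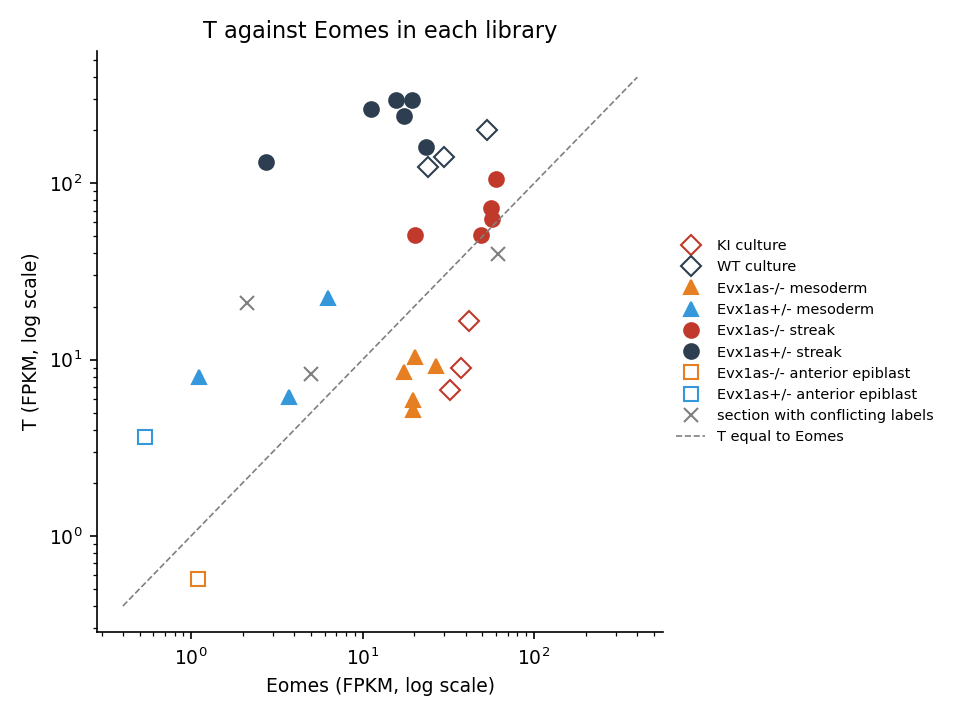
T (vertical log axis) against Eomes (horizontal log axis) in FPKM for every library with a table; colours and shapes give the group and the dashed line marks equal values. Homozygous streak sections lie at 50.8 to 105 FPKM of T and 20.2 to 59.9 FPKM of Eomes, while heterozygous streak sections lie above and mostly to the left, at 133 to 297 FPKM of T and 2.73 to 23.6 FPKM of Eomes.

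Levels ordered the tissues alike for T in both genotypes: streak above mesoderm above anterior epiblast, where homozygous and heterozygous mesoderm were neighbours that did not separate. For Eomes the order ran from the homozygous streak (48.4 ± 16.2 FPKM, n = 5) and KI and WT cultures (37.1 ± 4.84 and 35.6 ± 15.4 FPKM, n = 3 each) through homozygous mesoderm (20.8 ± 3.62 FPKM, n = 5) and the heterozygous streak (15.0 ± 7.27 FPKM, n = 6) to heterozygous mesoderm (3.69 ± 2.58 FPKM, n = 3; SD throughout). Each neighbouring pair in this order overlapped in range. Culture and section tables were made separately, so this order across them is a description.

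The genes most like each member over the 24 sections were found among 2687 named genes that averaged 5 FPKM or more. The 5 most like T were Fst (Pearson r 0.91), which encodes the activin antagonist follistatin, Cxx1b (0.91), Apln (0.89), the ligand apelin, Cxx1c (0.88) and Cdkn1a (0.87), a cell cycle inhibitor. The 5 most like Eomes were Tdgf1 (0.95), Fgf8 (0.86), Wnt3 (0.85), Tsen34 (0.84) and Hnrnpc (0.83). Tdgf1, the co-receptor of NODAL, averaged 192 ± 77.5 FPKM in the homozygous and 85.5 ± 54.2 FPKM in the heterozygous streak (SD, n = 5 and 6). These correlations are over sections that share genotype, region and possibly embryo and carry no test.

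Positions in the embryo tables are those of mm10 at both edges for 4 of the 5 genes and at 1 edge for Tbx20, whose annotated mm10 start is 24718138. T (ENSMUSG00000062327.10) lies on chromosome 17 from 8434423 to 8442496 and Eomes (ENSMUSG00000032446.14) on chromosome 9 from 118478212 to 118486132, both on the plus strand. Tbx3 (ENSMUSG00000018604.18) lies on chromosome 5 from 119670669 to 119684724 and Tbx6 (ENSMUSG00000030699.16) on chromosome 7 from 126781483 to 126785560, on the plus strand, and Tbx20 (ENSMUSG00000031965.14) on chromosome 9 from 24720812 to 24774303 on the minus strand. In the annotation an antisense gene overlaps Eomes over 574 bases and another overlaps Tbx3 over 697 bases, and no source used here says if counting was stranded, so reads of these partners cannot be told apart from those of Eomes and Tbx3.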

How the data were processed

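RNA was sequenced in 34 samples, and tables of 30 were used; 4 posterior samples were not analysed here. The deposited values are FPKM per gene and library, and the authors' processing notes name CASAVA, TopHat2 2.0.11 and mm10; the tool behind the values and its strand setting are not given in the sources used here. Positions in the culture tables are not those of mm10. Groups came from the labels. Values under 1e-06 FPKM were set to 0, and rows of a repeated identifier were added. Members and gene lists were chosen with earlier results of these data known.

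Comparisons used limma 3.58.1 in R 4.3.3 on log2(FPKM + 1), which understates changes of low genes, for genes averaging 1 FPKM or more, with a mean-dependent prior and Benjamini-Hochberg adjustment over all genes tested (threshold 0.05, two-sided). T and Eomes were contrasted by exact permutation over libraries. The limma fits were tested on simulated data with independent errors, unlike sections that may share an embryo. The permutation tests were not tested in this way. The named genes were the members, up to 4 listed genes past the threshold by size of change (otherwise up to 2), and the 5 genes most like T and Eomes. Alternatives were another pseudocount, no filter, median-ratio scaling, layer terms and blocks, conflicting sections by title or cell type label, and leaving out each library. Leaving out the sections rich in visceral endoderm markers or of layer 1, and using the cultures of a shared token, were chosen after seeing the data. The depth is unknown, so no counting interval was computed; the intervals deposited with each value are drawn or quoted as the tables give them.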

Additional observations from a re-analysis of the deposited data

Results flagged for a closer look

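Sets of 5 to 6 sections, each for 1 gene or for the ratio of T to Eomes, were examined for a section standing apart. Of 18 such sets 6 held one. The rule would flag about 1 in 20 sets of independent, normally distributed values. These sets share sections and their layers are different positions, so 6 of 18 cannot be set against that rate. Most Tbx3 and Tbx20 sections also lie at or near 0. Eomes in the homozygous streak was lowest in layer 11, with 20.2 FPKM beside 49.1 FPKM in the nearest section. Tbx3 in the homozygous streak was highest in layer 11, with 1.95 FPKM beside 0.047 FPKM, and in the heterozygous streak it was highest in layer 11 too, with 0.543 FPKM beside 0.0533 FPKM. Tbx6 in the homozygous streak was highest in layer 7, with 4.64 FPKM beside 1.16 FPKM. In the heterozygous streak Tbx6 was highest in layer 5, with 29.2 FPKM beside 11.6 FPKM. Tbx20 in the heterozygous streak was highest in layer 3, with 0.529 FPKM beside 0.0311 FPKM.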

How the results depend on the processing

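Sections tied to no embryo, unknown depth and few libraries limit these results. Of 263 alternatives for single T-box genes, apart from leaving out 1 library, 237 kept direction and side of the threshold, 13 lost the call, 5 gained it and 8 changed sign; of 428 that left out 1 library these were 401, 10, 4 and 13. The cause of these changes was not tested.

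Same-numbered cultures had deviations correlated at -0.117, -0.053 and -0.051. Same-layer sections had 0.476 in layer 1 and 0.020 to 0.069 in the other layers of the streak, and 0.014 to 0.040 in mesoderm. Not every pair exceeded 0.1, so the main comparisons of cultures and of genotypes did not take the numbers as pairs. Counts over layer-matched pairs of the genotypes are a description. Mesoderm minus streak was paired by genotype and layer, a pairing that was not checked in this way. With the replicate block the T minus Eomes log2 difference was -3.73 in the streak (exact permutation p = 0.0625) and -3.05 in mesoderm (exact permutation p = 0.25), the smallest p that 5 and 3 pairs allow, and -3.48 over both regions (lower in 8 of 8 pairs, exact permutation p = 0.0078), and 0 genes were called in the streak, 40 in mesoderm and 30 in both regions. Without the block of pairs and with layer as a number, 1723 genes were called for mesoderm minus streak and 0 for its difference between genotypes.

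Counts of called genes moved most. In the cultures of the shared token 908 were called. In the streak 1 was called with pseudocount 0.1 FPKM and 1 without the layer term, 0 with no filter, 8 after scaling, 4 by title, 0 by cell type label, 0 without the sections rich in visceral endoderm markers and 5 without layer 1. In mesoderm the counts were 0 with no filter, 60 without the layer term, 227 by title, 6 by label and 0 without those sections; in both regions 19 with no filter, 818 by title, 835 by label and 25 without those sections. For mesoderm minus streak they were 37 with no filter, 63 after scaling, 2214 by title, 279 by label and 41 without those sections. Within homozygous pairs they were 11 with pseudocount 0.1 FPKM, 3, 11, 69, 4 and 5 in the same order, and within heterozygous pairs 8, 112, 658, 5 and 51. For the difference between genotypes they were 0, 2, 0, 0 and 0. The interaction gave 1 with no filter and 1 after scaling. For the streak slope they were 0 with no filter, 25 by title, 4 by label, 18 without those sections and 1 without layer 1, and for the mesoderm slope 0 with no filter and 4 by title. T minus Eomes for mesoderm minus streak was -2.26 without those sections (exact permutation p = 0.0625).

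Values that changed sign had not passed the test. Eomes in cultures was -0.11 without WT culture 1 (range to 0.45 over cultures left out). Tbx6 in mesoderm was -0.027 after scaling, -0.23 by title, -0.49 without heterozygous layer 11 and -0.27 without homozygous layer 11 (range -0.49 to 0.55), and in homozygous pairs -0.37 without the sections rich in visceral endoderm markers. The difference of Eomes between genotypes was -0.020 without homozygous layer 11 (range to 0.56), and its interaction was -0.0029 without heterozygous mesoderm layer 11 (range to 0.85). The streak slope of T was 0.016 after scaling and 0.011 without heterozygous layer 11 (range -0.044 to 0.011). That of Tbx6 was -0.015 with pseudocount 0.1 FPKM, -0.0100 by title, -0.0061 by label, -0.18 without layer 1, -0.078 without heterozygous layer 1, -0.024 without homozygous layer 1 and -0.0058 without heterozygous layer 9 (range -0.078 to 0.076). Mesoderm slopes without heterozygous layer 11 were 0.019 for Eomes and 0.097 for Tbx6 (lowest of any -0.080 and -0.093), and without heterozygous layer 7 Tbx6 had 0.035.

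With 1 library left out the called genes ranged from 2693 to 3976 in cultures, 0 to 9 in the streak, 0 to 139 in mesoderm, 43 to 577 in both regions, 158 to 743 for mesoderm minus streak, 7 to 31 in homozygous pairs, 97 to 271 in heterozygous pairs and 1 to 2 for their difference, 0 to 1 for the interaction, 3 to 21 for the streak slope and 0 to 1 for the mesoderm slope. T minus Eomes ranged from -4.16 to -3.75 in cultures, -3.73 to -3.25 in the streak, -3.21 to -2.47 in mesoderm, -3.34 to -2.97 in both regions and -2.61 to -2.19 for mesoderm minus streak.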

Other observations

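The 3 sections with conflicting labels entered no comparison. The homozygous section titled streak and labelled mesoderm had 39.8 FPKM of T and 61.3 FPKM of Eomes. Of the heterozygous sections titled mesoderm and labelled streak, 1 had 21.0 FPKM of T and 2.11 FPKM of Eomes, and the other had 8.34 FPKM of T and 4.97 FPKM of Eomes. Their ratios of T to Eomes were 0.65, 9.98 and 1.68. Tbx6 was at 2.49, 8.18 and 1.36 FPKM in the same order, and Tbx20 was listed at 0 in all 3.

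Tbx20 stayed low throughout. Its highest mesoderm sections were those of layer 11, with 1.21 FPKM in homozygous and 1.52 FPKM in heterozygous mesoderm. In the streak it was higher in the homozygous section in 5 of 5 layer-matched pairs, at 0.0236 to 0.689 FPKM in homozygous and 0 to 0.529 FPKM in heterozygous sections, and 4 of the 6 heterozygous sections were listed at 0.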
